A study of Mus musculus with 2 samples.

Results

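The genes described here carry the symbols of the proteasome: every row of the table whose symbol is Psm, a letter from a to g and a digit, 49 of 17827 rows. They were compared between 1 library of Setd2 knockout (KO) mouse embryonic stem cells and 1 library of wild-type (WT) cells. Both lines are labelled 129SV/C57BL/6, at passages 10 to 12, and neither received a specific treatment. Both were grown on feeder cells and then passaged on gelatin to remove the feeders. The sources used here do not say how Setd2 was disrupted or whether each line is a single clone. The SETD2 protein places the trimethyl mark on lysine 36 of histone H3 in gene bodies. With 1 library per genotype there was no test, and each difference describes these 2 libraries.

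The proteasome degrades proteins tagged with ubiquitin. Its core particle is a barrel of outer alpha rings and inner beta rings, with the proteolytic sites on some of the beta subunits. A regulatory particle caps the barrel: its ATPases unfold substrates and thread them in, and its non-ATPase subunits bind and remove ubiquitin. Each subunit of the rings and of the cap is needed in equal number, and assembly chaperones, other activators and an inhibitor act on the particles. In human embryonic stem cells, high proteasome activity is known to accompany the pluripotent state.

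The members were 7 alpha ring subunits, 7 standard beta ring subunits, 6 ATPases and 11 non-ATPase subunits of the regulatory particle, together 31 standard subunits. The others were 3 inducible or tissue-specific core subunits, 3 chaperones of the regulatory particle, 4 chaperones of the core, 4 activator genes and 1 inhibitor gene. The rule also took 2 pseudogene rows, Psmb6-ps2 and Psme2b-ps, and Psmc3ip, which encodes a meiotic recombination factor that is no proteasome subunit. Those 2 rows are called pseudogenes here by their symbols, and the annotation used gives Psme2b-ps a coding part of 717 bases, as it does Psme2. No member was at 0 in either library, a count of 0, and 48 of the 49 had a mean of at least 1 CPM, the floor for comparison. CPM is the number of read equivalents (76 sequenced bases over the gene) with the library scaled to a total of 1000000. Psme2, at 0.985 CPM in the KO library and 0.447 CPM in the WT library, was under that floor. The KO library held 52041677 read equivalents, 0.567% of them on members, and the WT library 56129838, with 0.543% on members. Setd2 itself stood at 174 CPM in the KO library and 452 CPM in the WT library, a total over the gene that does not show whether the transcript is intact. The stem cell factor genes Pou5f1, Nanog and Sox2 were at 544, 310.1 and 417 CPM in the KO library and 558, 221 and 458 CPM in the WT library. Nanog was thus 1.40-fold higher (1.37 to 1.44), and the ratios of the others were 0.976 and 0.910. Of 6 fibroblast markers, standing for feeder cells, 5 were lower in the KO library, where 43.6% of all genes compared were, and none was at 0. Pdgfrb was 1.59-fold higher (1.39 to 1.81), and Twist2, a lower one, was under the floor. Summed levels were 66.1 CPM in the KO library and 84.7 CPM in the WT library, of which Col1a1 held 31.3 and 45.0 CPM. The part of feeder cells in the results below was not tested.

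Most proteasome genes had similar levels in the KO and WT libraries. In such bulk RNA, fewer cells with a transcript and less of it per cell cannot be told apart. The median log2 fold of the 48 compared members, on log2(CPM + 0.5) and KO over WT, was 0.023, against 0.051 over all 13523 genes compared. Above 0 were 29 members, where 56.4% of all genes were, and below 0 were 19, where 43.6% of all genes were. The smallest difference counted was a log2 fold of 0.32 in size, which is 25% higher or 20% lower in the KO library. Less than that apart were 40 of 48 members (83.3%), against 62.2% of all genes and 66.2% of the 9917 genes whose mean level lay in the range of the standard subunits. At least 25% higher in the KO library were 4 members, where 21.2% of all genes were, and at least 20% lower were 4, where 16.6% of all genes were. The higher ones were Psma4, Psmd13 and the pseudogenes Psmb6-ps2 and Psme2b-ps. The lower ones were Psmd11, Psmc1, Psma8 and Psmb10. These counts use the fold with the pseudocount of 0.5 CPM. With a pseudocount of 0.1 CPM 5 members were lower, the fifth being Psmg4, whose ratio without a pseudocount was 0.775. With the KO library rescaled by a trimmed mean of log ratios, 1 member was higher and 6 were lower by these thresholds, where 17.0% of all genes were higher and 20.3% lower. At least 1.5-fold lower were Psmd11 and Psmb10 (6.77% of all genes), and 0 members were 1.5-fold higher (7.42%). On the fold with the pseudocount none reached 2-fold in either direction, a count of 0, against 1.76% of all genes higher and 2.11% lower. Without a pseudocount the ratio of Psmb10 was 0.498, so the level in the KO library was 49.8% of that in the WT library. The summed level of the 31 standard subunits was 4464 CPM in the KO library and 4341 CPM in the WT library.

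**Figure D1:**
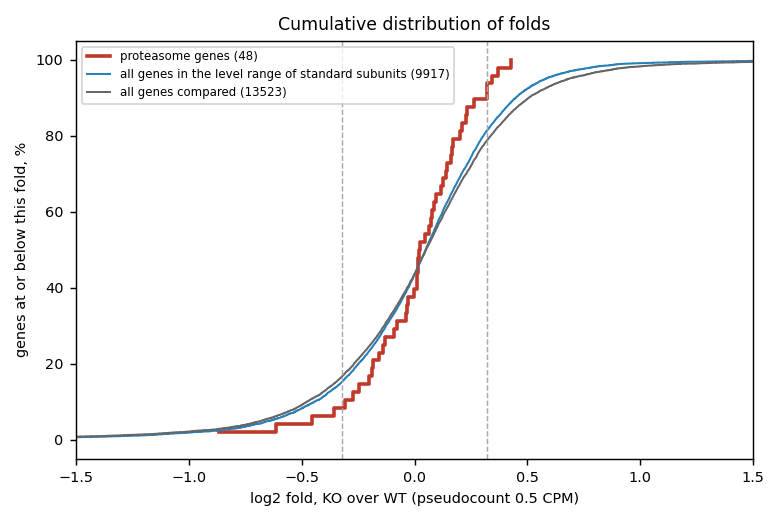
Cumulative share of genes (vertical axis, %) at or below each log2 fold, KO over WT (horizontal axis), for the 48 proteasome genes, the 9917 genes in the level range of the standard subunits and all 13523 genes compared. Dashed lines mark 0.32 on either side of 0, and 83.3% of members lie between them.

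The depth made small differences measurable as counting differences. For each gene the ratio of the CPM levels, KO over WT, was given an exact conditional binomial 95% interval, which covers counting error only and not variation between cultures. The interval lay above 1 for 21 of the 48 members and below 1 for 12. Over all genes compared it lay above 1 for 5646 and below 1 for 4253 of 13523. An interval that leaves out 1 is therefore common in this pair of libraries.

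**Figure D2:**
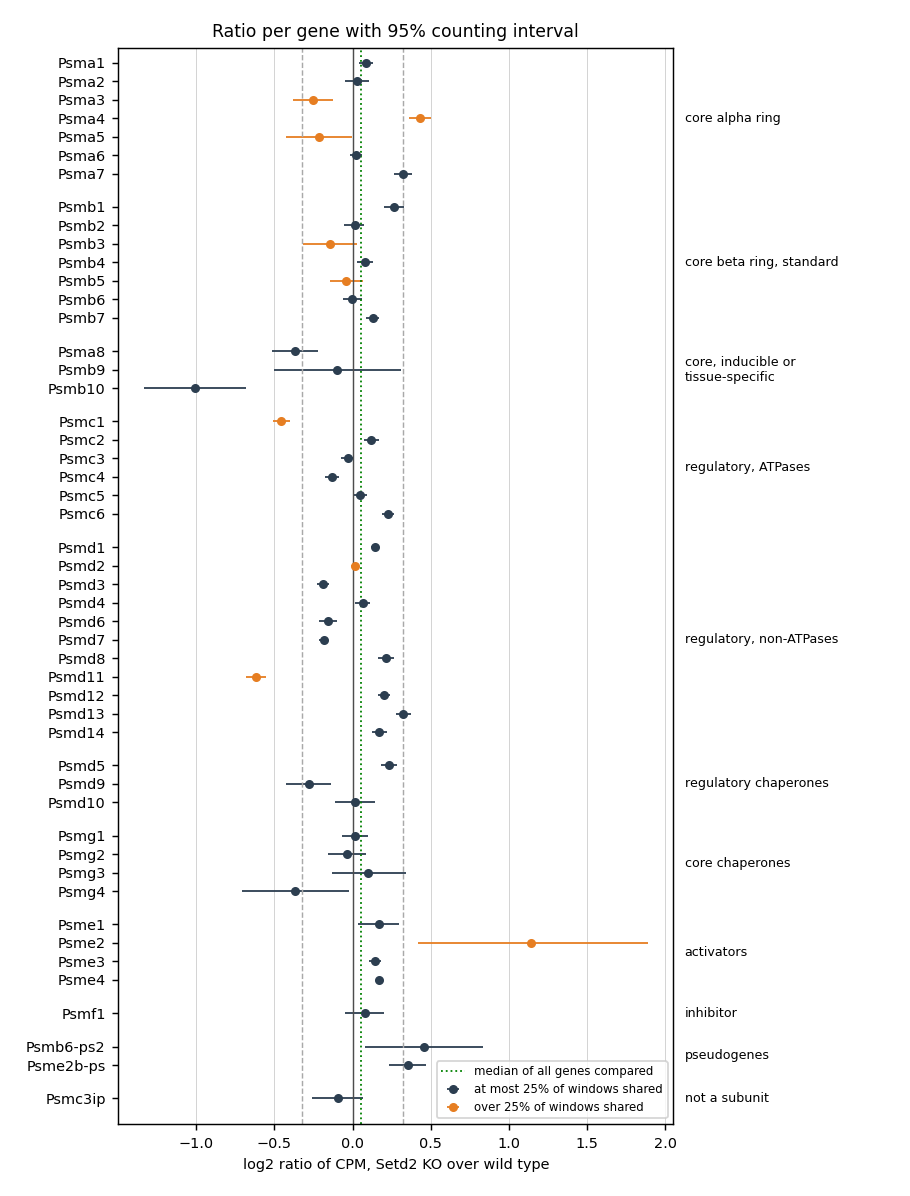
Ratio of CPM on the log2 scale, KO over WT (horizontal axis), for each of the 49 members by role, with the 95% counting interval as bars. Dashed lines mark 0.32 on either side of 0 and the dotted line the median log2 fold of all genes compared, 0.051; orange points are genes with over 25% of their transcript windows matched elsewhere in the genome, and they include Psma4, Psmc1 and Psmd11, the standard subunits furthest from 0.

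Many proteasome genes have retrocopies, intronless copies of the messenger RNA inserted elsewhere in the genome, to which their reads can align. To see which members this touches, windows of 76 bases were taken along the spliced transcript of each gene and searched in the mm9 genome, and a window was called shared where another place matched it with at most 2 differences. Of the 49 members 28 had no shared window, 21 had some and 9 had over 25%. Those 9 were Psmb5 (97.5%), Psmb3 (97.1%), Psme2 (78.7%), Psma5 (77.8%), Psma4 (75.2%), Psmd2 (55.0%), Psmc1 (53.8%), Psmd11 (45.7%) and Psma3 (33.1%). For 4 of them a stretch of coding sequence is shown beside the matching stretch of the copy. Each stretch was picked from those with 1 or 2 differences, so the few differences shown were set by that choice. All are mm9, on the coding strand of the parent gene, with the differing bases in capitals.
Psma5 (chr3:108071749-108071824, plus strand): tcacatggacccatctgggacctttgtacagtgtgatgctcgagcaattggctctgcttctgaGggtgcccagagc
Gm8394 (chr10:84776775-84776850, plus strand): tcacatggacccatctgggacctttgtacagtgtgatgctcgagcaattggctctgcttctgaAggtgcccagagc
Psmb5 (chr14:55235436-55235511, minus strand): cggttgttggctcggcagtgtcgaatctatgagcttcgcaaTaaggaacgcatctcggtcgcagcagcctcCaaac
Gm3375 (chr7:3181440-3181515, plus strand): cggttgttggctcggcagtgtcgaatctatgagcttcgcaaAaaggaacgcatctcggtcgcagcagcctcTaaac
Psmd11 (chr11:80269848-80269923, plus strand): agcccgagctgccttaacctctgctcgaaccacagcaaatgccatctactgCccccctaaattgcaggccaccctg
Gm14048 (chr2:130707155-130707230, plus strand): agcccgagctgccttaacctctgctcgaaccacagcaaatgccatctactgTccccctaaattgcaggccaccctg
Psmc1 (chr12:101353680-101353755, plus strand): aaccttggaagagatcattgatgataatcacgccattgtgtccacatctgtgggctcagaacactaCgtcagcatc
Gm9575 (chr16:50666078-50666153, minus strand): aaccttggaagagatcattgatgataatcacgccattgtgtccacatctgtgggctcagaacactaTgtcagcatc
Counted from 1 at the 5′ end of each stretch, the copies differ from the parent genes by G64A in Psma5, T42A and C72T in Psmb5, C52T in Psmd11 and C67T in Psmc1. Of the 76-base stretches lying within 1 coding exon, the copy matched 125 of 125 in Psma5, 503 of 567 in Psmb5, 298 of 399 in Psmd11 and 263 of 588 in Psmc1 with at most 2 differences.

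The table holds rows of its own for many of these copies, and those rows carried reads. Over the members, 17 rows of predicted genes or pseudogenes lay at a place matched by at least 5% of a member's windows, and they belonged to 13 members. Some of these rows reach beyond the matched place. Gm9575, a copy of Psmc1, runs from 50665041 to 50721732, with the match at 50665161 to 50666415. Gm8394, a copy of Psma5, runs from 84763832 to 84777210, with the match at 84776223 to 84777148. All reads of such a row were counted with the copy, which can include reads from outside the match. Psma5, an alpha ring subunit, was at 6.39 CPM in the KO library and 7.43 CPM in the WT library, while its copy Gm8394 stood at 87.8 CPM in the KO library and 76.9 CPM in the WT library. Psma3, another alpha ring subunit, had 16.9 CPM in the KO library and 20.1 CPM in the WT library. Its 3 copies Gm13835, Gm4742 and Gm5406 together had 109 CPM in the KO library and 103 CPM in the WT library. Of the reads listed under Psma5 and its copy, the copy row held 93.2% in the KO library and 91.2% in the WT library. Of those under Psma3 and its copies, the copy rows held 86.6% in the KO library and 83.6% in the WT library. The sources used here do not say how reads with several alignments were assigned, and reads from a transcribed copy cannot be told apart from misplaced reads of the gene.

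Adding the copy rows to their parent genes, a setting chosen after the data were seen, drew the standard subunits together. The ratio of a sum lies between the ratios of its rows, so an extreme own row moves inward where its copies are less extreme. The narrowing therefore does not show which gene the reads of the copy rows came from. Psmd11 (gene number 69077, chromosome 11, 80242117 to 80285635, mm9), a scaffold subunit of the regulatory particle lid, had the lowest fold of the standard subunits. It was at 59.3 CPM in the KO library and 90.9 CPM in the WT library, a ratio of 0.652 (interval 0.624 to 0.682). Its copy Gm14048 was at 146 CPM in the KO library and 140 CPM in the WT library, and the sum gave 205 CPM in the KO library and 231 CPM in the WT library, a ratio of 0.889 (0.866 to 0.912). Psmc1 (chromosome 12, 101350541 to 101361574), an ATPase of the base, was at 85.4 CPM in the KO library and 117 CPM in the WT library, a ratio of 0.729 (0.701 to 0.757). With its copies Gm9067 and Gm9575 it was at 173 CPM in the KO library and 207 CPM in the WT library, a ratio of 0.838 (0.815 to 0.861). Psma4 (chromosome 9, 54798666 to 54805837) had the highest fold of the standard subunits and kept it. The gene was at 75.9 CPM in the KO library and 56.3 CPM in the WT library, its copy Gm6542 at 93.5 CPM in the KO library and 72.0 CPM in the WT library, and the ratio of the sums was 1.32 (1.28 to 1.36). Exons of AY074887 on the opposite strand lie over 9.79% of the Psma4 transcript. For Psma3, Psma5 and Psmd2 the log2 folds of -0.25, -0.20 and 0.017 on the own rows became 0.033, 0.16 and 0.11 on the sums. Over the 31 standard subunits the SD of the log2 folds was 0.22 on the own rows and 0.16 on the sums, and the number at least 25% higher or 20% lower was 4 on the own rows and 2 on the sums.

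**Figure D3:**
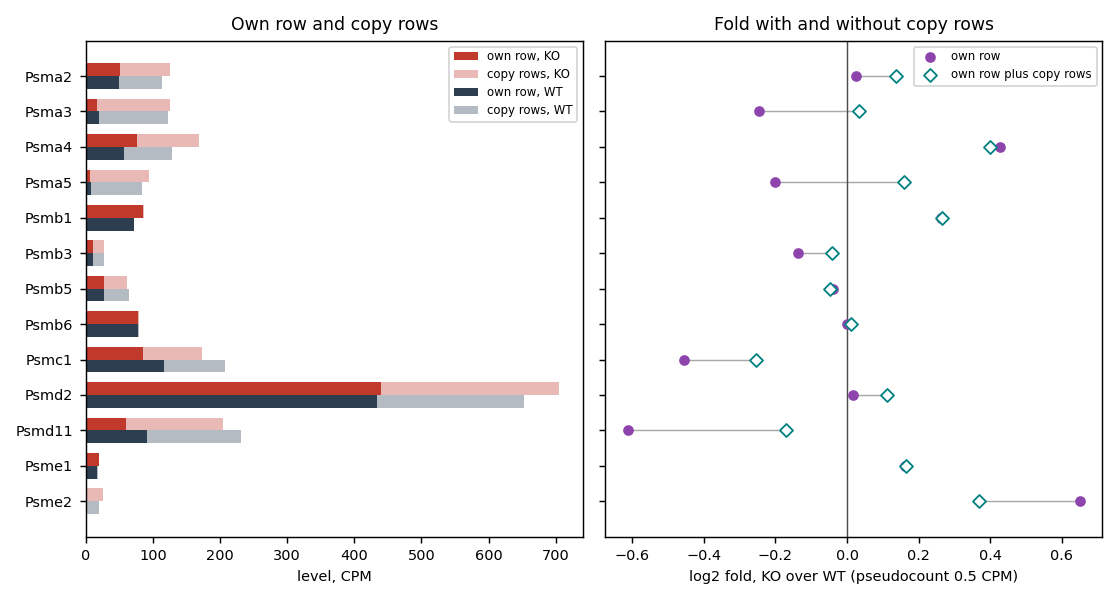
Left, level in CPM of the own row (full colour) and of the copy rows (pale) in the KO library (red, upper bar) and the WT library (blue-grey, lower bar) for the 13 members with copy rows. Right, log2 fold, KO over WT, of the own row (filled) and of the sum (open diamond); Psmd11 moves from -0.61 to -0.17, while Psma4 stays at 0.43 and 0.40.

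In the alpha ring, which gates the barrel, the median log2 fold was 0.026 over 7 subunits, 5 above 0 and 2 below. Psma6 was at 195 CPM in the KO library and 192 CPM in the WT library, and Psma1 at 168 CPM in the KO library and 158 CPM in the WT library. Neither has a shared window, and they differed by 1.01-fold (interval 0.987 to 1.04) and 1.06-fold (1.03 to 1.09). Psma7, again without shared windows, was further apart, at 99.2 CPM in the KO library and 79.4 CPM in the WT library. Its log2 fold lay just short of the 25% threshold and that of Psmd13 just past it, both at 0.32 when rounded. Psma2 was at 50.3 CPM in the KO library and 49.4 CPM in the WT library, with 11.2% of windows shared. Of the reads listed under Psma2 and its copies Gm6474 and Gm7640, the copy rows held 59.7% in the KO library and 56.5% in the WT library. The log2 fold of Psma2, 0.026 on the own row, became 0.14 on the sum.

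The beta ring had the narrowest range of the 4 groups of standard subunits, with a median log2 fold of 0.012 and values from -0.14 in Psmb3 to 0.26 in Psmb1. The catalytic subunits are Psmb5, with chymotrypsin-like activity, Psmb6, with caspase-like activity, and Psmb7, with trypsin-like activity. Psmb5 was at 27.0 CPM in the KO library and 27.8 CPM in the WT library, and Psmb6 at 77.2 CPM in the KO library and 77.3 CPM in the WT library. Psmb7 was at 195 CPM in the KO library and 178 CPM in the WT library, 1.09-fold (1.06 to 1.12). The intervals of Psmb5 and Psmb6 held 1, so no difference was detectable there at this depth, and almost all windows of Psmb5 are shared. Of the structural subunits, Psmb1 was at 85.8 CPM in the KO library and 71.5 CPM in the WT library, Psmb2 at 73.6 CPM in the KO library and 73.0 CPM in the WT library, and Psmb4 at 119 CPM in the KO library and 112 CPM in the WT library. Psmb3, at 10.1 CPM in the KO library and 11.2 CPM in the WT library, is the beta subunit with the most matched places, and several of them have no row of their own, so its sum with the copy row stays incomplete.

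Genes for inducible or tissue-specific core subunits were low in both libraries and all 3 had log2 folds below 0, where 43.6% of all genes were. Psmb9 and Psmb10 replace standard catalytic subunits in the immunoproteasome, which interferon induces, and Psma8 is the alpha subunit of the testis form of the core. Psmb10 (gene number 19171, chromosome 8, 108459664 to 108462005) had the lowest fold of all members. It was at 2.21 CPM in the KO library and 4.44 CPM in the WT library, a ratio of 0.498 (0.396 to 0.624). Over the compared genes of chromosome 8 the median log2 fold was -0.35. Psma8 (chromosome 18, 14864660 to 14920808) was at 12.6 CPM in the KO library and 16.2 CPM in the WT library, a ratio of 0.774 (0.700 to 0.857). Psmb9 was at 1.88 CPM in the KO library and 2.01 CPM in the WT library, and its interval, 0.706 to 1.24, held 1. None of the 3 has a shared window, but 15.7% of the Psmb9 transcript lies under exons of Tap1 on the opposite strand. Whether counting used the strand is not stated in the labels. Psmb8 and Psmb11 were not analysed here. Per kilobase of transcript, Psmb9 made up 1.42% of Psmb9 plus its standard counterpart Psmb6 in the KO library and 1.51% in the WT library. Psmb10 made up 1.03% of Psmb10 plus Psmb7 in the KO library and 2.23% in the WT library. Psma8 made up 6.41% of Psma8 plus Psma7 in the KO library and 9.95% in the WT library. As a share of the reads of the pair, Psma8 had 11.3% (exact binomial interval 10.5 to 12.1%) in the KO library and 17.0% (16.0 to 18.0%) in the WT library.

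The ATPase ring of the regulatory particle had a median log2 fold of 0.0085, with 3 of 6 members above 0 and 3 below. Psmc6, at 219 CPM in the KO library and 187 CPM in the WT library, was the highest (ratio 1.17, interval 1.14 to 1.20), and Psmc1, described with its copies, the lowest. Psmc2 was at 145 CPM in the KO library and 134 CPM in the WT library, and Psmc5 at 146 CPM in the KO library and 141 CPM in the WT library. Psmc3 was at 159 CPM in the KO library and 163 CPM in the WT library, and Psmc4 at 135 CPM in the KO library and 148 CPM in the WT library. Apart from Psmc1, the members of this ring lay inside the 25% and 20% thresholds, at levels between 134 and 219 CPM. The meiotic gene Psmc3ip was at 11.3 CPM in the KO library and 12.0 CPM in the WT library.

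Non-ATPase subunits of the regulatory particle had a median log2 fold of 0.065, with 7 of 11 above 0. Psmd1 and Psmd2, the large scaffolds of the base, had the highest CPM, at 546 and 439 in the KO library and at 494 and 434 in the WT library. Per kilobase of transcript Psmd7 was the highest on the own rows, at 183 CPM in the KO library and 208 CPM in the WT library. With copy rows added it was Psmd2, at 238 CPM per kb in the KO library and 220 in the WT library. Psmd14, the deubiquitinase of the lid, was at 130 CPM in the KO library and 115 CPM in the WT library, 1.13-fold (1.09 to 1.17). Psmd4, a ubiquitin receptor, was at 130 CPM in the KO library and 125 CPM in the WT library. Of the other lid subunits, Psmd13 was at 139 CPM in the KO library and 111 CPM in the WT library (ratio interval 1.21 to 1.29), Psmd12 at 213 CPM in the KO library and 185 CPM in the WT library, and Psmd8 at 125 CPM in the KO library and 108 CPM in the WT library. Exons of Sirt3 on the opposite strand lie over 7.64% of the Psmd13 transcript. Lower in the KO library were Psmd3, at 211 CPM in the KO library and 241 CPM in the WT library, Psmd6, at 90.0 CPM in the KO library and 100.4 CPM in the WT library, and Psmd7. The lid thus had members on both sides of 0, with Psmd11 and Psmd13 at the ends.

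**Figure D4:**
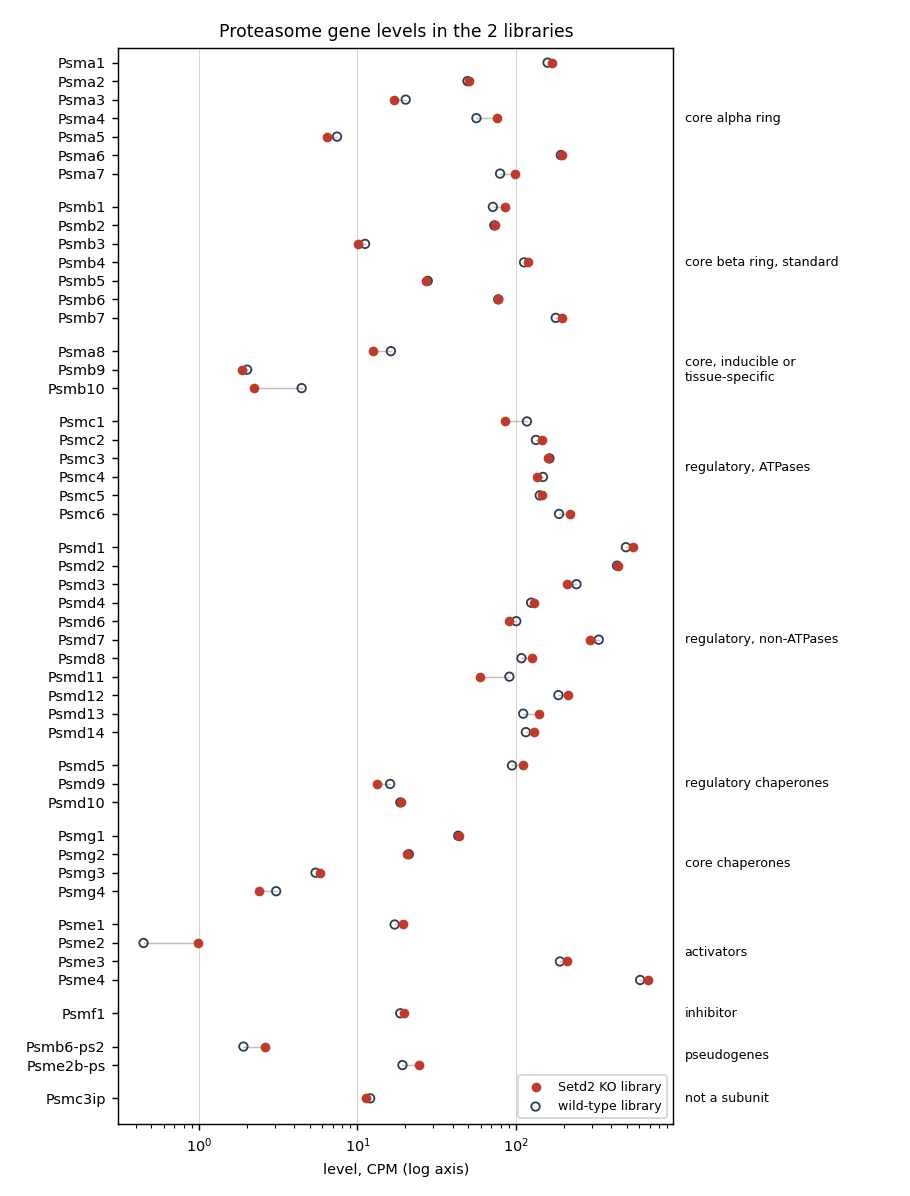
Level of each of the 49 members in CPM (horizontal axis, log scale), by role, in the KO library (filled red) and the WT library (open). Points of a gene mostly touch, while levels between genes run from 0.985 CPM (KO) and 0.447 CPM (WT) in Psme2 to 682 CPM (KO) and 607 CPM (WT) in Psme4.

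Assembly factors were mixed. Psmd5, a chaperone of the ATPase ring, was at 111 CPM in the KO library and 94.4 CPM in the WT library (ratio 1.18, interval 1.13 to 1.22). Psmd9, another, was at 13.2 CPM in the KO library and 16.1 CPM in the WT library (ratio 0.823, 0.744 to 0.909), and Psmd10 at 18.8 CPM in the KO library and 18.6 CPM in the WT library. The core chaperones Psmg1 and Psmg2, which act as a pair, had log2 folds of 0.016 and -0.034 at 43.7 and 20.6 CPM in the KO library and 43.2 and 21.1 CPM in the WT library. Psmg3 and Psmg4, the second pair, were low, at 5.83 and 2.38 CPM in the KO library and 5.44 and 3.07 CPM in the WT library, and the interval of Psmg4, 0.612 to 0.985, was wide. Among the activators, Psme4 had the highest CPM of all members, at 682 CPM in the KO library and 607 CPM in the WT library, 1.12-fold (1.11 to 1.14). Its transcript is long, and per kilobase it was at 105 CPM in the KO library and 93.6 CPM in the WT library. Psma6, by that measure, was at 187 CPM in the KO library and 184 CPM in the WT library. Psme3, the nuclear activator, was at 209 CPM in the KO library and 189 CPM in the WT library, and Psme1, of the interferon-inducible activator, at 19.3 CPM in the KO library and 17.1 CPM in the WT library. Psme2, the partner of Psme1, was the member under the floor, and the row of its pseudogene Psme2b-ps was at 24.5 CPM in the KO library and 19.2 CPM in the WT library. The inhibitor gene Psmf1 was at 19.6 CPM in the KO library and 18.6 CPM in the WT library.

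Levels between genes were compared per kilobase of the transcript with the longest coding part, in CPM per kb. The 15 standard subunits without a shared window ran from 65.4 CPM per kb (Psmd6) to 187 (Psma6) in the KO library and from 71.6 (Psmd8) to 208 (Psmd7) in the WT library. The 8 standard subunits with over 25% of windows shared had a median of 25.9 CPM per kb in the KO library and 31.9 in the WT library, against 98.3 in the KO library and 95.1 in the WT library for the other 23. In the alpha ring the own rows spanned 36.2-fold in the KO library and 30.7-fold in the WT library, with Psma5 at the low end (5.16 CPM per kb in the KO library and 6.00 in the WT library). With the copy rows added the ring spanned 4.23-fold in the KO library and 4.32-fold in the WT library. The low end of the sums was Psma3 in the KO library and Psma2 in the WT library. Their transcripts have 2846 and 2666 bases, while those of the other alpha subunits run from 914 (Psma7) to 1239 (Psma5) bases. The part of the transcript length in this span was not tested. The beta ring spanned 12.7-fold in the KO library and 10.5-fold in the WT library on the own rows, and 4.78-fold in the KO library and 4.24-fold in the WT library on the sums. Among the ATPases the own rows spanned 1.97-fold in the KO library and 1.43-fold in the WT library, and the sums 1.40-fold in the KO library and 1.82-fold in the WT library. The WT span was thus wider on the sums. Among the non-ATPases the own rows spanned 8.80-fold in the KO library and 6.52-fold in the WT library, and the sums 3.65-fold in the KO library and 3.95-fold in the WT library. The inducible and testis subunits stood at 1.39 to 7.43 CPM per kb in the KO library and 1.49 to 9.60 in the WT library.

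Chromosomes differed between the libraries. The 719 compared genes of chromosome 8 had a median log2 fold of -0.35, while each other autosome had a median between 0.0018 and 0.13. The median was 0.17 over 506 genes of chromosome X, where Psmd10 lies, and 6.20 over 5 genes of chromosome Y. On chromosome 8 lie Psmb10 and Psmd7, and the part of position in their folds was not tested. Psmd7, a lid subunit, was at 293 CPM in the KO library and 333 CPM in the WT library (log2 fold -0.19, ratio 0.879, interval 0.861 to 0.898). Relative to the median of its chromosome Psmd7 stood 0.16 higher and Psmb10 0.52 lower (-0.52). Psmd11 and Psmc1, on chromosomes with medians of 0.025 and 0.10, stood at -0.64 and -0.56 relative to them.

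Proteasome genes are known to be induced together by the factor encoded by Nfe2l1, which binds antioxidant response elements, and their promoters often hold CCAAT boxes, bound by the NF-Y complex. RefSeq promoters (GRCm38.p6, 250 bases before to 50 after the start) were found for 39 member genes, 42 promoters in all. The element core TGACNNNGC, on either strand, was in 6 of the 42 (14.3%), against 12.4% of all 32851 promoters, and CCAAT in 14 (33.3%), against 37.4%. The shares of the members were near those of all promoters. A match here is a run of letters, not a site. The promoters of Psmb5, Psmb6 and Psmd9 hold the core on the plus strand of the gene within 50 bases before the start, and the 120 bases before it are shown, with the core in capitals.
Psmb5 (GRCm38.p6 chr14:54617996-54618115, minus strand): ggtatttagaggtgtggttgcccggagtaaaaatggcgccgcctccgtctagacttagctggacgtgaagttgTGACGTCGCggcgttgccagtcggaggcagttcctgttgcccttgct
Psmb6 (GRCm38.p6 chr11:70525237-70525356, plus strand): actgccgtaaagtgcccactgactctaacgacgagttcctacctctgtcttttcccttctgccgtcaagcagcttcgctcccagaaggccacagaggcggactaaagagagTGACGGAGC
Psmd9 (GRCm38.p6 chr5:123228070-123228189, plus strand): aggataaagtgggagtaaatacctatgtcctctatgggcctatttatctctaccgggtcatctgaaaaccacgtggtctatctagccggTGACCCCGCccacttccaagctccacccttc
The log2 folds of these genes were -0.040, -0.0012 and -0.27, and of these the interval of the ratio left out 1 only for Psmd9. The other promoters with the core, on the opposite strand, were those of Psmc6, Psmd12 and Psme4. Their log2 folds were 0.23, 0.20 and 0.17, with intervals of the ratio above 1, so members with the core stood on both sides of 0.

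Around the proteasome, genes of 5 lists were read beside the members. Of 8 compared subunits, assembly factors and bound enzymes with other symbols, 1 was at least 25% higher (21.2% of all genes). None was at least 20% lower, a count of 0 (16.6% of all genes), and the median log2 fold was 0.041. The higher one was Shfm1, a small subunit of the lid, at 49.7 CPM in the KO library and 33.6 CPM in the WT library, 1.48-fold (1.39 to 1.57). Pomp, which guides core assembly, was at 70.2 CPM in the KO library and 56.8 CPM in the WT library, 1.24-fold (1.18 to 1.30). The deubiquitinase genes Uchl5 and Usp14 had log2 folds of 0.23 and -0.12. The ubiquitin receptor gene Adrm1 was at 14.7 CPM in the KO library and 17.1 CPM in the WT library, and 87.7% of its windows matched the row Gm9774, at 78.7 CPM in the KO library and 92.2 CPM in the WT library.

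Of 10 genes of transcriptional control, 1 was at least 25% higher (21.2% of all genes) and 1 at least 20% lower (16.6% of all genes). The median log2 fold of the list was 0.056. Nfe2l1 was at 309 CPM in the KO library and 259 CPM in the WT library, 1.19-fold (1.16 to 1.22), and its relative Nfe2l2 at 117 CPM in the KO library and 107 CPM in the WT library. Nfe2l3, a further relative, was higher, at 7.15 CPM in the KO library and 3.14 CPM in the WT library, 2.28-fold (1.90 to 2.74). Keap1, the adaptor that marks the Nfe2l2 product for degradation, was lower, at 0.985 CPM in the KO library and 1.95 CPM in the WT library. Keap1 passed the floor of the mean only through the WT library. Of the shuttle and unfoldase genes, Ufd1l was higher in the KO library, with a log2 fold of 0.35.

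The polyubiquitin gene Ubb was at 338 CPM in the KO library and 288 CPM in the WT library, with 67.1% of windows shared. Of its windows 66.4% matched the row Gm1821, at 430 CPM in the KO library and 498 CPM in the WT library. The row Gm8797, matched by 54.5%, was at 317 CPM in the KO library and 619 CPM in the WT library. Both rows were lower in the KO library, opposite to the own row of Ubb. Uba1, the main activating enzyme, was at 963 CPM in the KO library and 919 CPM in the WT library.

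Of the antigen processing genes, which work with the immunoproteasome, the interferon regulator gene Irf1 was at 36.1 CPM in the KO library and 22.5 CPM in the WT library, a log2 fold of 0.67 (ratio interval 1.49 to 1.72). The peptide transporter gene Tap2 was at 6.34 CPM in the KO library and 4.12 CPM in the WT library, 1.54-fold (1.30 to 1.83). Its partner Tap1, at 0.661 CPM in the KO library and 0.363 CPM in the WT library, was under the floor. B2m, the light chain of class I molecules, and Tapbp, which bridges them to the transporter, had ratios of 1.03 (0.949 to 1.12) and 1.05 (0.965 to 1.15), and no difference was detectable at this depth. The immunoproteasome genes Psmb9 and Psmb10 had log2 folds of -0.078 and -0.87, and the activator gene Psme1 and the activator pseudogene Psme2b-ps 0.16 and 0.34.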

How the data were processed

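RNA-seq libraries of 1 Setd2 KO and 1 WT line were taken to their groups by the genotype label, and the columns by their names. The tools TopHat 1.0.13 and CASAVA 1.6.0 and the build mm9 are named, without their roles, per the submitters' processing notes. The deposited columns are headed RPKM, but the authors' values are log2(x + 1) of read equivalents x, unscaled by depth or length: times 76, 85.7% of the x under 200 in the KO library and 85.9% in the WT library gave a whole number to within 0.05. Values were turned back, scaled to CPM by the library total, and a symbol on several rows took the highest row. The fold used a pseudocount of 0.5 CPM, the floor was a mean of 1 CPM, and thresholds were 25% higher or 20% lower, then 1.5- and 2-fold. Without replicates no test was possible. Ratios have no pseudocount, and exact 95% intervals were computed on rounded read equivalents with scipy 1.17.1. Transcripts came from the GENCODE annotation of NCBIM37, the assembly of mm9, and windows every 10 bases were aligned with minimap2 2.31. The calculation was tested on simulated data. The sources used here do not say whether intron reads were counted. Members, lists and thresholds were chosen with earlier results of these data known; named genes were all members, the list genes past the smallest threshold and 7 fixed ones; Ubb, Uba1, B2m and Tapbp were chosen after seeing their values. Some genes that this rule takes are not reported here.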

Additional observations from a re-analysis of the deposited data

How the results depend on the processing

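No paired analysis was possible because the KO and WT groups hold 1 library apiece, so no library could be left out either. Under 12 of 13 alternatives the median over members moved by no more than the median half-width of the counting interval of 1 gene. That width is not the spread of a median. The sign of the median turned under all 3 rescalings of the KO library. It was -0.038 with the trimmed mean of log ratios, -0.028 with the median log2 fold set to 0 and -0.010 with the upper quartile. The count at least 25% higher, 4 as reported, was 2 with a pseudocount of 1 CPM, with the KO library rescaled to a median log2 fold of 0 or to the upper quartile, and 1 with the trimmed mean. That count was 5 with copy rows added and 5 with no floor. With a floor of 5 CPM it was 3, as it was without members with over 50% or over 25% of windows shared. The count at least 20% lower, 4 as reported, was 2 with copy rows added and 2 without members with over 25% of windows shared, both settings chosen after the data were seen. It was 3 with a floor of 5 CPM, 3 without chromosome 8 and 3 without members with over 50% of windows shared. It was 5 with a pseudocount of 0.1 CPM, 5 with the median set to 0, 5 with the upper quartile and 6 with the trimmed mean. The count at least 1.5-fold lower, 2 as reported, was 1 with a floor of 5 CPM, 1 without chromosome 8, 1 with copy rows added and 1 without members with over 25% of windows shared. With no floor 1 member, Psme2, was at least 1.5-fold higher. The Setd2 log2 fold, -1.37 as reported, was -1.43 with the median set to 0 and -1.44 with the trimmed mean. The rescalings subtract 0.034 to 0.061 from every log2 fold, and 7 members with folds near 0 (Psma2, Psma6, Psmb2, Psmc5, Psmd10, Psmd2 and Psmg1) change sign under at least 1 of them. Of 428 recomputed member folds 375 stayed within the counting interval. Of 52 role medians 44 moved by no more than the median half-width for 1 gene of the role. These totals include settings that cannot change a member fold, so they do not measure stability. Such settings are the other floors, the summing of rows of a symbol and, for members without copy rows, the adding of copy rows. The summing cannot change the median over members either.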
